A study of Mus musculus with 14 samples.

Results

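The genes described here carry fatty acids through activation and oxidation. They are 32 mouse genes chosen by name, and 31 of them were measured among the 18193 genes that had a probe set with a single gene symbol on the array. Acsl1 was not analysed here. The measured genes, called members below, had 60 probe sets, with several for 19 members, and each member is given by its brightest probe set, judged by the mean of all arrays. Levels are intensities, the brightness of a probe set on a linear scale, and differences are on the log2 scale.

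Cells of 8-week-old hGFAP-eGFP mice were sorted by fluorescence, and their RNA was amplified and hybridised to 14 Affymetrix MOE430 2.0 arrays. In every group, DIEC_GFP included, the mice carried this transgene, an enhanced green fluorescent protein (GFP) placed under the human GFAP promoter, which is active in astrocytes and astrocyte-like stem cells. The subependymal zone (SEZ), the neurogenic layer beside the lateral ventricle, gave 4 samples sorted for both GFP and prominin (SEZ_GFPprom), 2 sorted for GFP (SEZ_GFP), 2 for the surface protein prominin (SEZ_Prom) and 2 for the surface protein CD24 (SEZ_CD24). The diencephalon gave 4 samples sorted for GFP (DIEC_GFP), which are set against them. By their labels DIEC_GFP holds astrocytes, SEZ_CD24 ependymal cells and the other SEZ sorts neural stem cells. They call the arrays biological replicates without saying whether these came from separate animals, so the p-values rest on array-to-array spread, which may be technical, and a sort for a surface protein or a transgene can hold several cell types.

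A fatty acid is first activated by an acyl-CoA synthetase, which joins it to coenzyme A and so traps it in the cell for oxidation, storage or membrane synthesis. For oxidation, the carnitine shuttle carries long chains into the mitochondrion, where a cycle of dehydrogenation, hydration, a further dehydrogenation and thiolytic cleavage shortens them, and electron transfer flavoprotein passes the electrons on to the respiratory chain. Very long chains are shortened in peroxisomes, and the PPAR receptors with their coactivator PGC-1alpha regulate many of these genes. In the brain astrocytes are held to oxidise most of the fatty acids, and adult neural stem cells have been reported to use the pathway too.

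The arrays were first compared with the marker genes of cell types. SEZ_CD24 went against its label: its summed intensity of 14 ependymal markers was 452 and 637, against 12902 to 22131 in SEZ_GFPprom and 5587 to 8091 in DIEC_GFP, and the ependymal marker Meig1 was at or under 10 on both SEZ_CD24 arrays. The CD24 sort instead had neuroblast markers at a sum of 29322 and 45969 (12 genes) and microglia markers at 12936 and 26272 (11 genes). Its erythroid markers summed to 3509 and 9020 (3 genes, 48 to 108 in all other arrays). The erythroid marker Hba-a1 was at or under 10 on both SEZ_CD24 arrays, and the microglia marker Itgam was so on all arrays of every group. DIEC_GFP had the highest sums of the 15 astrocyte markers in 3 of its arrays (46332 to 49747), but also high sums of 9 oligodendrocyte markers (34401 to 51582) and of 7 oligodendrocyte progenitor markers (10652 to 14044). DIEC_GFP replicate 4 stood apart, with an astrocyte marker sum of 25040, a member sum of 15187 against 22271 to 24504 in the other arrays of its group, and the lowest level of the group in 17 of 31 members. SEZ_GFP replicate 2 was below SEZ_GFP replicate 1 in 26 of 31 members. Neither of these counts for single arrays was set against all genes. Calls that single arrays decide are given beside the genes they concern.

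Of the 31 members, 15 differed among the 5 groups (F test of limma, adjusted p under 0.05, 48.4%), against 25.8% of all genes. The highest group mean was in DIEC_GFP for 17 members, in SEZ_Prom for 6, in SEZ_GFPprom for 5, in SEZ_GFP for 2 and in SEZ_CD24 for 1. SEZ_CD24 had the lowest mean for 23 members. These counts of highest and lowest means were not set against all genes. The summed member intensity was 13183 to 13939 in SEZ_GFPprom, 9401 and 12462 in SEZ_GFP, 12445 and 13208 in SEZ_Prom and 6891 and 7519 in SEZ_CD24, against 15187 to 24504 in DIEC_GFP. These sums did not overlap between DIEC_GFP and any SEZ sort. In bulk samples such as these, fewer cells of a type and less RNA per cell cannot be told apart.

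**Figure D1:**
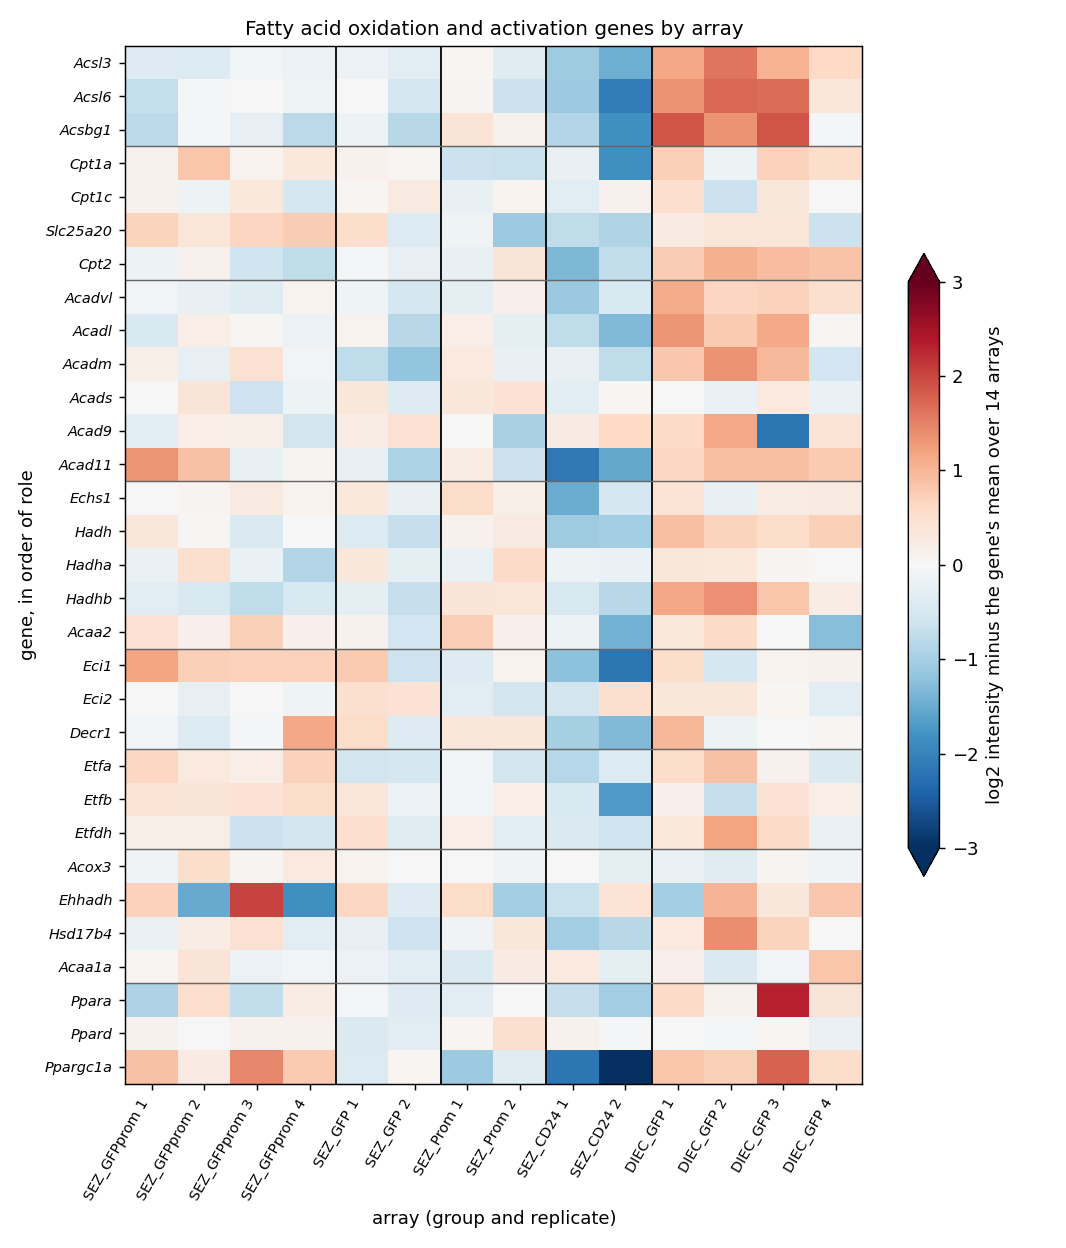
Log2 intensity of each of the 31 measured members on each of the 14 arrays, minus that gene's mean over all arrays. Genes run down the page in order of their role, with lines between roles, and arrays run by group. The DIEC_GFP columns are mostly red and the SEZ_CD24 columns mostly blue, while DIEC_GFP replicate 4 is paler than the other arrays of its group.

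Against DIEC_GFP, all members that passed the test were lower in the SEZ sort. In SEZ_GFPprom 7 of 31 members were lower (22.6%), against 7.78% of all genes, and 0 were higher, against 10.1% of all genes. In SEZ_GFP 9 were lower (29%), against 7.05% of all genes, and 0 were higher, against 5.61%. In SEZ_CD24 14 were lower (45.2%), against 9.74%, and 0 were higher, against 6.9%. At an unadjusted p under 0.05, 1, 0 and 0 members were higher in SEZ_GFPprom, SEZ_GFP and SEZ_CD24, against 18.4, 11.8 and 13.2% of all genes. At the same threshold 9, 13 and 21 members were lower, against 12.8, 13.6 and 15.5% of all genes. The median member difference was -0.20 in SEZ_GFPprom, -0.37 in SEZ_GFP and -1.15 in SEZ_CD24 (log2, against DIEC_GFP), where the median of all genes was 0.08, 0.00 and -0.01. The 3 comparisons share the DIEC_GFP arrays.

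The 7 members lower in SEZ_GFPprom were the synthetase genes Acsl3, Acsl6 and Acsbg1, and Cpt2, Acadvl, Hadh and Hadhb of the mitochondrial pathway. The 9 lower in SEZ_GFP were these with Acadm and Acad11. In SEZ_CD24 the 14 held the same 7, Acad11, and Cpt1a, Acadl, Echs1, Eci1, Hsd17b4 and Ppargc1a. As the DIEC_GFP arrays are shared, these lists are given side by side and their overlap is not a result. Whether a difference from DIEC_GFP is larger in SEZ_CD24 than in SEZ_GFPprom is the direct comparison of these sorts, given below. The count for SEZ_GFP rested on single arrays. It was 1 without SEZ_GFP replicate 2, 4 without SEZ_GFP replicate 1, and 5, 4 and 4 without DIEC_GFP replicates 1, 2 and 3, and it was 5 in a fit of only these groups. The SEZ_CD24 count was 9 without SEZ_CD24 replicate 2.

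Markers of several cell types and a measure of RNA quality also differed between DIEC_GFP and these sorts. Astrocyte markers were lower against DIEC_GFP for 8 of 15 genes in SEZ_GFPprom, 7 in SEZ_GFP and 12 in SEZ_CD24, with 0 higher in each, and their summed level ran from 21285 to 24198 in SEZ_GFPprom, 18901 to 24046 in SEZ_GFP and 8081 to 18225 in SEZ_CD24, against 25040 to 49747 in DIEC_GFP. Oligodendrocyte markers were lower than in DIEC_GFP for 6, 9 and 8 of 9 genes in SEZ_GFPprom, SEZ_GFP and SEZ_CD24, and oligodendrocyte progenitor markers for 7, 4 and 7 of 7. Ependymal markers were higher than in DIEC_GFP for 6 of 14 genes in SEZ_GFPprom, and lower for 10 of 14 in SEZ_GFP and in SEZ_CD24. Neuroblast markers were higher for 8, 11 and 11 of 12 genes in SEZ_GFPprom, SEZ_GFP and SEZ_CD24, and markers of cycling cells for 8, 9 and 8 of 9. The summed cycling markers ran from 4419 to 7001 in SEZ_GFPprom, 9380 to 10612 in SEZ_GFP and 5000 to 7218 in SEZ_CD24, against 625 to 1199 in DIEC_GFP. The part of these cell types in the member differences was not tested.

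The log2 ratio of 3' to 5' signal, the mean over the Gapdh and beta-actin control probe sets, which is higher where the amplified RNA is shorter, was 4.94 ± 0.18 in SEZ_GFPprom (SD, n = 4), 4.73 ± 0.14 in SEZ_GFP (n = 2) and 5.15 ± 0.29 in SEZ_CD24 (n = 2), against 5.40 ± 0.29 in DIEC_GFP (n = 4). With that ratio as a covariate 3 members passed in SEZ_GFPprom (Acsl3, Cpt2 and Hadhb), 1 in SEZ_GFP (Hadh) and 15 in SEZ_CD24. In SEZ_GFPprom the calls lost were those of Acsl6, Acsbg1, Acadvl and Hadh (adjusted p = 0.158, 0.254, 0.19 and 0.0643).

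**Figure D2:**
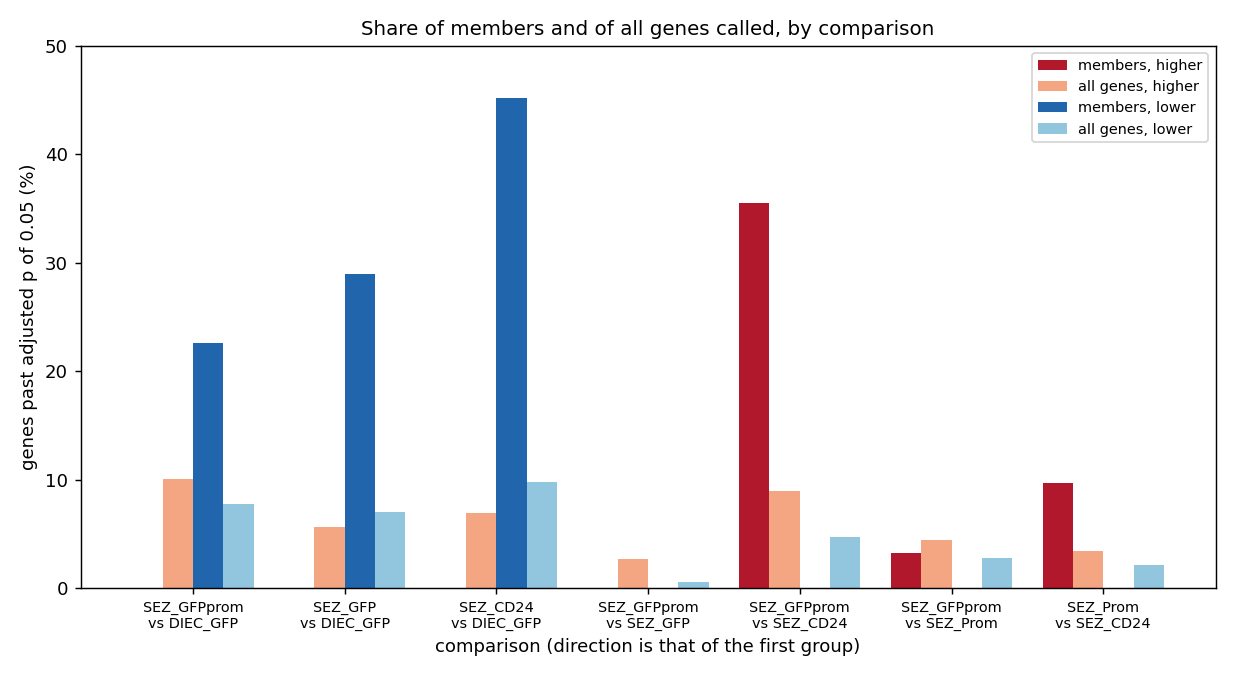
Percent of the 31 members and of all 18193 genes past an adjusted p of 0.05 in each of the 7 comparisons, split into higher and lower in the first group named. Members passed more often than all genes in the lower direction against DIEC_GFP (22.6, 29 and 45.2%) and in the higher direction for SEZ_GFPprom against SEZ_CD24 (35.5%).

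All 3 measured genes of activation were lower in each SEZ sort tested against DIEC_GFP. Acsl3, a long-chain acyl-CoA synthetase of the endoplasmic reticulum and of lipid droplets, had intensities of 937, 922, 1161 and 1096 in SEZ_GFPprom, 1082 and 978 in SEZ_GFP, 1273 and 951 in SEZ_Prom and 586 and 447 in SEZ_CD24, against 2770, 3764, 2546 and 1866 in DIEC_GFP. Each DIEC_GFP array was above each SEZ array, and both SEZ_CD24 arrays were below all others. Acsl3 fell by 1.37 ± 0.21 in SEZ_GFPprom (log2 ± SE, adjusted p = 0.00149), by 1.37 ± 0.26 in SEZ_GFP (adjusted p = 0.00481) and by 2.37 ± 0.26 in SEZ_CD24 (adjusted p = 0.000139) against DIEC_GFP. It had the smallest p of the F test among members (adjusted p = 0.000526). Without SEZ_GFP replicate 2 the difference of SEZ_GFP had an adjusted p of 0.0699.

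The promoter window of Acsl3 is shown because this gene had the smallest p of the F test. It is chr1:78657575-78657874 (plus strand, GRCm38.p6), from RefSeq, runs from 250 bases before the gene's start to 50 after it, and has in capitals 5 copies of GGGCGG and 1 of CCAAT, read on either strand.
Acsl3: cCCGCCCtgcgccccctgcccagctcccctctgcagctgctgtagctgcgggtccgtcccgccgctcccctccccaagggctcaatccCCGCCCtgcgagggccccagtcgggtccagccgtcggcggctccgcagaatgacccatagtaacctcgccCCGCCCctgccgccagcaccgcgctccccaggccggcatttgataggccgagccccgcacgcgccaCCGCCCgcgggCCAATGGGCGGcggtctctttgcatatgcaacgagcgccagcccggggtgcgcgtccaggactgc

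Acsl6, a synthetase of the nervous system with a preference for polyunsaturated chains, stood at 430, 696, 711 and 643 in SEZ_GFPprom, 710 and 502 in SEZ_GFP, 753 and 451 in SEZ_Prom and 334 and 164 in SEZ_CD24, against 1809, 2343, 2258 and 908 in DIEC_GFP. Again no SEZ array reached the lowest DIEC_GFP array, replicate 4. The gene fell by 1.50 ± 0.34 in SEZ_GFPprom (adjusted p = 0.0119, or 0.158 with the 3' to 5' covariate), by 1.52 ± 0.42 in SEZ_GFP (adjusted p = 0.0335) and by 2.88 ± 0.42 in SEZ_CD24 (adjusted p = 0.000806). The SEZ_GFP call did not hold without SEZ_GFP replicate 1 or 2 (adjusted p = 0.0951 and 0.28) nor without DIEC_GFP replicates 1, 2 or 3 (0.0664, 0.0778 and 0.0699).

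Acsbg1, a synthetase named after the fly gene bubblegum and active on long and very long chains, stood at 198, 336, 288 and 196 in SEZ_GFPprom, 309 and 194 in SEZ_GFP, 449 and 374 in SEZ_Prom and 186 and 95 in SEZ_CD24, against 1271, 871, 1277 and 328 in DIEC_GFP. DIEC_GFP replicate 4 lay among the SEZ arrays. The difference of Acsbg1 between SEZ_GFPprom and DIEC_GFP, -1.74 ± 0.41 (adjusted p = 0.0146), passed although the arrays of these groups overlapped. With the 3' to 5' covariate it was -1.15 (adjusted p = 0.254). It fell by 2.63 ± 0.51 in SEZ_CD24 (adjusted p = 0.00404), or 0.0648 without SEZ_CD24 replicate 2. It fell by 1.75 ± 0.51 in SEZ_GFP (adjusted p = 0.0425), and that call was lost in 11 of the 14 fits that left out 1 array, with adjusted p up to 0.326 without SEZ_GFP replicate 2.

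Between the SEZ sorts, Acsl3 was higher in SEZ_GFPprom than in SEZ_CD24 by 1.00 ± 0.26 (adjusted p = 0.0249), and Acsl6 by 1.38 ± 0.42 (adjusted p = 0.0496). For Acsl3 the call was lost without SEZ_CD24 replicate 2 (adjusted p = 0.215) or SEZ_GFPprom replicate 4 (0.0531), and for Acsl6 in 11 of 14 such fits (up to 0.404, without SEZ_CD24 replicate 2). SEZ_GFPprom and SEZ_GFP differed by -0.01 ± 0.26 for Acsl3, 0.03 ± 0.42 for Acsl6 and 0.02 ± 0.51 for Acsbg1, none past the test. SEZ_Prom was above SEZ_CD24 for all 3 genes, by 1.10 to 1.62, with adjusted p of 0.0533 to 0.14. Of these, Acsl3 passed without DIEC_GFP replicate 2 or 4 (0.0349 and 0.0298) and Acsbg1 without DIEC_GFP replicate 4 (0.0353).

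A match to TCAAGGTCA, the site bound by oestrogen-related receptors, was found in the promoter window of 1 of 27 members, Acsl6, against 0.424% of 32817 windows. The count is of members and the share is of windows, and Acsl6 has several windows. The match is in the window chr11:54303574-54303873 (plus strand, GRCm38.p6), in capitals and in reverse orientation. It starts 167 bases before the gene's start in that window, in chr11:54303641-54303681. The stretch is shown, as a choice made after its values were seen, because it holds the only such match among the members.
Acsl6: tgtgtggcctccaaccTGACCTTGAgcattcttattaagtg

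**Figure D3:**
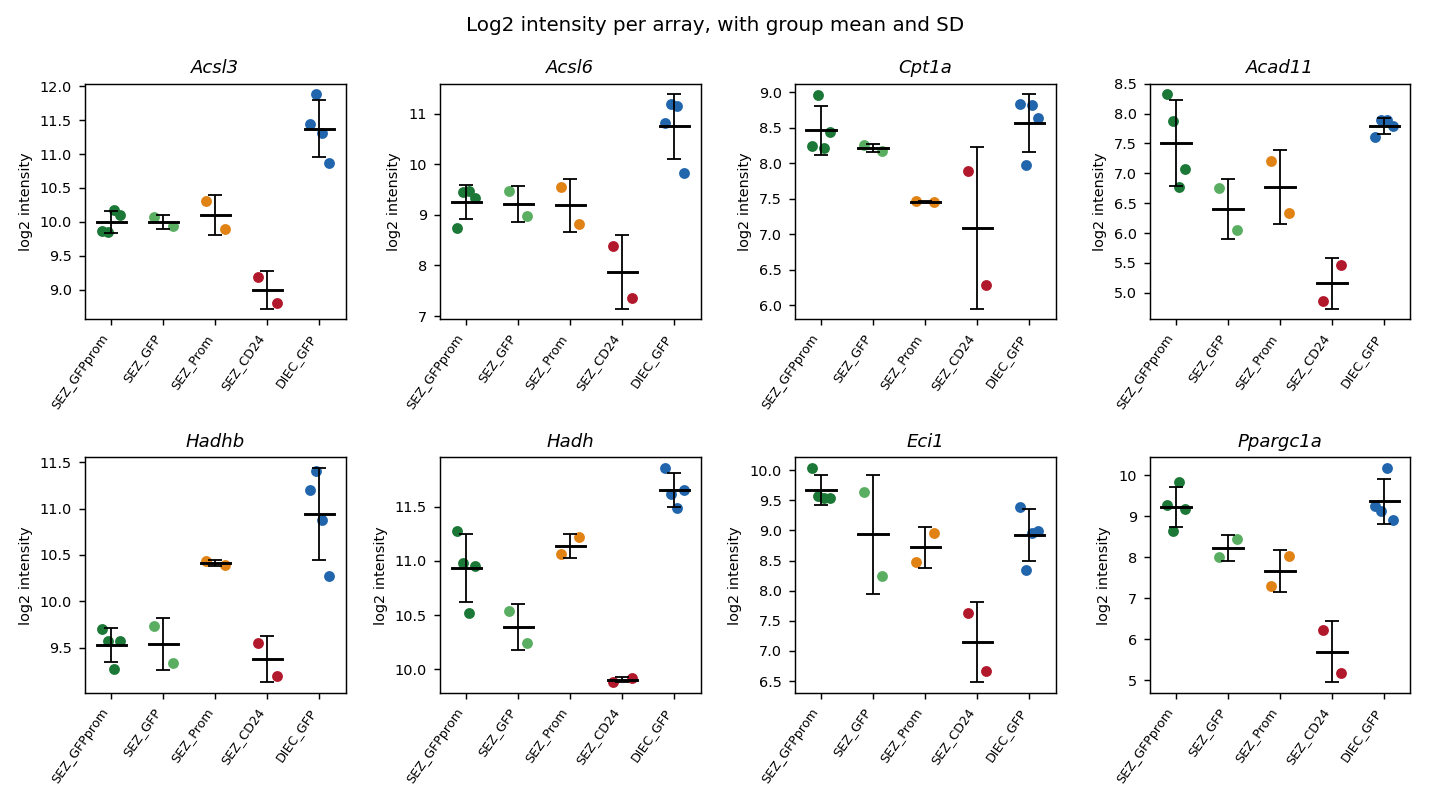
Log2 intensity of 8 members on each array (points), with the mean and SD of each group (bars), by sort. Each panel has its own axis. In Acsl3, Acsl6 and Hadh the 4 DIEC_GFP arrays lie above all SEZ arrays. In Acsl3, Acsl6, Acad11, Hadh, Eci1 and Ppargc1a both SEZ_CD24 arrays lie below all others.

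Of the 4 carnitine shuttle genes, Cpt2 was lower in all 3 comparisons with DIEC_GFP, Cpt1a in 1, and Slc25a20 and Cpt1c in 0. Cpt2, the transferase of the inner membrane that returns the chain to coenzyme A, stood at 106, 128, 78 and 69 in SEZ_GFPprom, 115 and 99 in SEZ_GFP, 101 and 154 in SEZ_Prom and 46 and 71 in SEZ_CD24, against 200, 247, 222 and 214 in DIEC_GFP. All 4 DIEC_GFP arrays lay above all SEZ arrays. It fell by 1.25 ± 0.23 in SEZ_GFPprom (adjusted p = 0.0036), by 1.04 ± 0.28 in SEZ_GFP (adjusted p = 0.0291) and by 1.95 ± 0.28 in SEZ_CD24 (adjusted p = 0.000718). The other probe set of Cpt2 had the same sign in all 3 comparisons and passed in 0. The SEZ_GFP call was lost without SEZ_GFP replicate 1 or 2 (adjusted p = 0.107 and 0.231) and without DIEC_GFP replicate 2 or 3 (0.0653 and 0.0513).

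The promoter window of Cpt2, chr4:107923540-107923839 (minus strand, GRCm38.p6), is given since it is among the 4 members with the smallest F-test p. Its capitals mark 3 copies of GGGCGG.
Cpt2: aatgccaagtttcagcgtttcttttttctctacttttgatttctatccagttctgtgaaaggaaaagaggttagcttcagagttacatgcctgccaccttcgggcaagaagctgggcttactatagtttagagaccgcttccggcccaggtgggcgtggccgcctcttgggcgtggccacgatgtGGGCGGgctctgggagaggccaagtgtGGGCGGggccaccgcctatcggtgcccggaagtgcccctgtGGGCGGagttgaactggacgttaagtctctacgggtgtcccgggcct

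Cpt1a, the outer-membrane transferase that malonyl-CoA inhibits and that limits the rate of entry, stood at 304, 497, 297 and 346 in SEZ_GFPprom, 306 and 289 in SEZ_GFP, 177 and 175 in SEZ_Prom and 238 and 78 in SEZ_CD24, against 455, 252, 452 and 400 in DIEC_GFP. SEZ_GFPprom and DIEC_GFP overlapped and differed by -0.10 ± 0.32 (adjusted p = 0.857), while SEZ_CD24 was below both. It fell by 1.48 ± 0.39 in SEZ_CD24 against DIEC_GFP (adjusted p = 0.0229) and was 1.37 ± 0.39 higher in SEZ_GFPprom than in SEZ_CD24 (adjusted p = 0.0384). Both calls rested on SEZ_CD24 replicate 2, without which they were -0.67 (adjusted p = 0.303) and 0.57 (adjusted p = 0.439). The call between the SEZ sorts was lost in 8 of 14 fits without 1 array.

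Slc25a20, the translocase that exchanges acylcarnitine for carnitine across the inner membrane, stood at 652, 521, 634 and 686 in SEZ_GFPprom, 584 and 309 in SEZ_GFP, 373 and 192 in SEZ_Prom and 242 and 218 in SEZ_CD24, against 485, 524, 523 and 259 in DIEC_GFP. It was highest in SEZ_GFPprom and 1.43 ± 0.36 above SEZ_CD24 (adjusted p = 0.0213), without overlap. Without SEZ_CD24 replicate 1 or 2 the adjusted p was 0.0745 or 0.142. Against DIEC_GFP, SEZ_CD24 differed by -0.91 ± 0.36 (adjusted p = 0.111), or -1.15 (adjusted p = 0.0278) without DIEC_GFP replicate 4. Cpt1c, the brain form of the outer transferase, passed in no comparison, with group means between 7.11 ± 0.32 in SEZ_CD24 and 7.38 ± 0.15 in SEZ_GFP (log2, SD, n = 2 each) and arrays from 94 to 210.

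Of the 6 acyl-CoA dehydrogenases, which take the first electrons from the chain, 1, 3 and 3 were lower than in DIEC_GFP in SEZ_GFPprom, SEZ_GFP and SEZ_CD24. The shares of all genes lower were 7.78, 7.05 and 9.74%. Acadvl, for very long chains, stood at 628, 571, 523 and 718 in SEZ_GFPprom, 614 and 466 in SEZ_GFP, 557 and 744 in SEZ_Prom and 309 and 490 in SEZ_CD24, against 1441, 1044, 1083 and 935 in DIEC_GFP. No SEZ array reached a DIEC_GFP array. It fell by 0.87 ± 0.20 in SEZ_GFPprom (adjusted p = 0.0129, or 0.19 with the 3' to 5' covariate), by 1.05 ± 0.25 in SEZ_GFP (adjusted p = 0.0165, or 0.205 without SEZ_GFP replicate 2) and by 1.51 ± 0.25 in SEZ_CD24 (adjusted p = 0.00164).

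Acadl, for long chains, stood at 287, 450, 400 and 347 in SEZ_GFPprom, 424 and 220 in SEZ_GFP, 451 and 322 in SEZ_Prom and 233 and 156 in SEZ_CD24, against 988, 680, 858 and 403 in DIEC_GFP. It fell by 1.86 ± 0.38 in SEZ_CD24 (adjusted p = 0.00515, or 0.0718 without SEZ_CD24 replicate 2). Against DIEC_GFP it differed by -0.92 ± 0.31 in SEZ_GFPprom (adjusted p = 0.0583) and by -1.18 ± 0.38 in SEZ_GFP (adjusted p = 0.0618). DIEC_GFP replicate 4 overlapped these sorts, and without it the values were -1.19 (adjusted p = 0.0136) and -1.45 (adjusted p = 0.0138).

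Acadm, for medium chains, stood at 848, 637, 1034 and 715 in SEZ_GFPprom, 446 and 329 in SEZ_GFP, 925 and 640 in SEZ_Prom and 647 and 445 in SEZ_CD24, against 1313, 1915, 1473 and 503 in DIEC_GFP. SEZ_GFP was the lowest sort here, and DIEC_GFP replicate 4 lay far below its group. It fell by 1.61 ± 0.44 in SEZ_GFP (adjusted p = 0.0334) and did not pass the F test (adjusted p = 0.0958). That call was lost without SEZ_GFP replicate 1 or 2 (adjusted p = 0.105 and 0.265) or DIEC_GFP replicates 1, 2 or 3 (0.0697, 0.0727 and 0.0688). Without DIEC_GFP replicate 4, Acadm also passed in SEZ_GFPprom (-0.96, adjusted p = 0.0201) and in SEZ_CD24 (-1.53, adjusted p = 0.00456).

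Acad11, a dehydrogenase for long and very long chains, stood at 320, 234, 109 and 135 in SEZ_GFPprom, 108 and 66 in SEZ_GFP, 148 and 81 in SEZ_Prom and 29 and 44 in SEZ_CD24, against 196, 237, 239 and 221 in DIEC_GFP. SEZ_GFPprom spread on both sides of the narrow DIEC_GFP range. It fell by 2.64 ± 0.41 in SEZ_CD24 against DIEC_GFP (adjusted p = 0.00117) and was 2.35 ± 0.41 higher in SEZ_GFPprom than in SEZ_CD24 (adjusted p = 0.00354). Once probe sets of shared sequence were left out, the second of these values was 1.08 (adjusted p = 0.154). In SEZ_GFP it fell by 1.40 ± 0.41 against DIEC_GFP (adjusted p = 0.0461), a call lost in 10 of 14 fits without 1 array (up to 0.374, without SEZ_GFP replicate 2). SEZ_Prom was 1.62 ± 0.48 above SEZ_CD24 (adjusted p = 0.0738), and this passed without SEZ_GFPprom replicate 1 or 3 (0.048 and 0.0497).

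Acads, for short chains, and Acad9, which also serves the assembly of respiratory complex I, passed in none of the 7 comparisons. Acads ranged from 66 to 136 over all arrays, with differences between -0.48 and 0.51. Acad9 varied more within groups than between them: its pooled SD was 0.92 (log2), against a range of group means of 0.90, and DIEC_GFP replicate 3 read 16 where the other DIEC_GFP arrays read 97 to 162.

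Of the 5 genes of the later steps of the spiral, 2, 2 and 3 were lower than in DIEC_GFP in SEZ_GFPprom, SEZ_GFP and SEZ_CD24. The shares of all genes lower were 7.78, 7.05 and 9.74%. Hadh and Hadhb were lower in each of these sorts, Echs1 in SEZ_CD24, and Hadha and Acaa2 in none. Hadh, the dehydrogenase for medium- and short-chain 3-hydroxyacyl-CoA, stood at 2485, 2024, 1467 and 1977 in SEZ_GFPprom, 1486 and 1210 in SEZ_GFP, 2140 and 2381 in SEZ_Prom and 946 and 970 in SEZ_CD24, against 3709, 3136, 2875 and 3230 in DIEC_GFP. The DIEC_GFP arrays were all above, and the SEZ_CD24 arrays all below, the other sorts. It fell by 0.72 ± 0.17 in SEZ_GFPprom (adjusted p = 0.0136, or 0.0643 with the 3' to 5' covariate), by 1.27 ± 0.21 in SEZ_GFP (adjusted p = 0.00232) and by 1.75 ± 0.21 in SEZ_CD24 (adjusted p = 0.000232). The SEZ_GFP difference was the only one of the 9 in that comparison that passed under all 24 alternatives tried.

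Hadh was also 1.03 ± 0.21 higher in SEZ_GFPprom than in SEZ_CD24 (adjusted p = 0.00769) and 1.24 ± 0.24 higher in SEZ_Prom than in SEZ_CD24 (adjusted p = 0.0173). Its probe set may detect a sequence shared with other transcripts. Without such probe sets the difference between SEZ_GFPprom and SEZ_CD24 turned to -0.12 (adjusted p = 0.895), and that between SEZ_Prom and SEZ_CD24 was 1.23 (adjusted p = 0.182). Without SEZ_CD24 replicate 2 these calls had adjusted p of 0.0527 and 0.0795, and the SEZ_Prom call was also lost without SEZ_Prom replicate 1 or 2 (0.0712 and 0.104).

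The promoter window of Hadh, also among the 4 with the smallest F-test p, is chr3:131272052-131272351 (minus strand, GRCm38.p6), with 4 copies of GGGCGG and 1 of CCAAT in capitals.
Hadh: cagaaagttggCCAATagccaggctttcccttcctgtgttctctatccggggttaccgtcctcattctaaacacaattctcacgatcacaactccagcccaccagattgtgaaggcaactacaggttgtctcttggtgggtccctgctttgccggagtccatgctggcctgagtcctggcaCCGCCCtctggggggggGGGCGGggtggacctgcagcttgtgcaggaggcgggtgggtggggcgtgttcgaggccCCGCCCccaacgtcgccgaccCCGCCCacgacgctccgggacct

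Hadhb, the thiolase subunit of the mitochondrial trifunctional protein, stood at 836, 759, 616 and 759 in SEZ_GFPprom, 852 and 647 in SEZ_GFP, 1383 and 1346 in SEZ_Prom and 752 and 588 in SEZ_CD24, against 2358, 2718, 1876 and 1234 in DIEC_GFP. SEZ_Prom lay between the others, above DIEC_GFP replicate 4. It fell by 1.41 ± 0.23 in SEZ_GFPprom (adjusted p = 0.00209), by 1.40 ± 0.28 in SEZ_GFP (adjusted p = 0.00706, or 0.11 without SEZ_GFP replicate 2 and 0.152 for the mean of its probe sets) and by 1.56 ± 0.28 in SEZ_CD24 (adjusted p = 0.00277). Of the 2 other probe sets of Hadhb, 0 passed in SEZ_GFPprom, 0 in SEZ_GFP and 1 in SEZ_CD24 against DIEC_GFP. In these comparisons 2, 1 and 1 of them had the same sign as the brightest. SEZ_GFPprom differed from SEZ_Prom by -0.89 ± 0.28, which did not pass (adjusted p = 0.0861). It passed without DIEC_GFP replicate 4 (adjusted p = 0.0275), in a fit of only these groups (0.042) and with array weights (0.0437). SEZ_Prom was 1.04 ± 0.33 above SEZ_CD24 (adjusted p = 0.0904, or 0.0326 without DIEC_GFP replicate 4).

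Hadha, the subunit of the same protein that holds the hydratase and long-chain dehydrogenase, passed in no comparison. Its probe set was dim, at 18 to 49 on all arrays, where the median probe set read 27, so its differences of -0.38 to 0.35 were taken near background. The start sites of Hadha and Hadhb face away from each other on chromosome 5, and their promoter windows share 228 bases (30155003 to 30155230, GRCm38.p6). The window of Hadhb, chr5:30155003-30155302 (plus strand), is shown for that overlap, a choice made after the values were seen, and has 4 copies of GGGCGG in capitals.
Hadhb: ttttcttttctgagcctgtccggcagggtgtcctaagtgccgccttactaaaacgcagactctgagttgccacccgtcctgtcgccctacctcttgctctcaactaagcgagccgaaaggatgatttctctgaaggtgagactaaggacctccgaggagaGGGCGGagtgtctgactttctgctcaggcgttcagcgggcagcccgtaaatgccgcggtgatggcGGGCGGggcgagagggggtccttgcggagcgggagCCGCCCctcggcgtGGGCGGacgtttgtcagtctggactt

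Echs1, the short-chain enoyl-CoA hydratase, stood at 135, 142, 162 and 145 in SEZ_GFPprom, 167 and 115 in SEZ_GFP, 195 and 151 in SEZ_Prom and 48 and 95 in SEZ_CD24, against 179, 114, 155 and 160 in DIEC_GFP. Only SEZ_CD24 stood apart. It fell by 1.15 ± 0.28 in SEZ_CD24 against DIEC_GFP (adjusted p = 0.0147), and was higher than in SEZ_CD24 by 1.11 ± 0.28 in SEZ_GFPprom (adjusted p = 0.023) and by 1.35 ± 0.32 in SEZ_Prom (adjusted p = 0.0357). All 3 calls were lost without SEZ_CD24 replicate 1 (adjusted p = 0.193, 0.22 and 0.156), and the last also without either SEZ_Prom array (0.184 and 0.105) or SEZ_GFPprom replicate 2 or 4 (0.0503 and 0.0511). Acaa2, the thiolase for medium chains, passed in no comparison, with group means from 7.63 ± 0.90 in SEZ_CD24 (n = 2) to 8.86 ± 0.41 in SEZ_Prom (n = 2) and arrays from 128 to 569.

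Of the auxiliary enzymes, which remodel the double bonds of unsaturated chains, Eci1 passed. This enoyl-CoA isomerase stood at 1050, 758, 746 and 742 in SEZ_GFPprom, 793 and 302 in SEZ_GFP, 356 and 498 in SEZ_Prom and 197 and 102 in SEZ_CD24, against 670, 325, 495 and 509 in DIEC_GFP. SEZ_GFPprom was above all DIEC_GFP arrays, a difference of 0.75 ± 0.33 that did not pass (adjusted p = 0.144). Eci1 was 2.52 ± 0.40 higher in SEZ_GFPprom than in SEZ_CD24 (5.75-fold, adjusted p = 0.002) and fell by 1.77 ± 0.40 in SEZ_CD24 against DIEC_GFP (adjusted p = 0.0104, or 0.141 without SEZ_CD24 replicate 2). The first of these calls held under all 24 alternatives. SEZ_Prom was 1.57 ± 0.47 above SEZ_CD24 (adjusted p = 0.0756), and this passed without SEZ_GFP replicate 1 or 2 (0.048 each).

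Decr1, the dienoyl-CoA reductase, had SEZ_CD24 arrays of 97 and 78 below all other arrays (147 to 436), and its difference from DIEC_GFP there was -1.38 ± 0.44 (adjusted p = 0.0527). That difference passed for the mean of its probe sets (-1.45, adjusted p = 0.00449), without the dimmest genes (0.0398) and without SEZ_GFPprom replicate 4 (0.0196). For the mean of probe sets, Decr1 was also 0.93 higher in SEZ_GFPprom than in SEZ_CD24 (adjusted p = 0.0492) and 1.37 higher in SEZ_Prom than in SEZ_CD24 (adjusted p = 0.0336), and the first of these passed without DIEC_GFP replicate 1 too (0.0493). Eci2, the second isomerase, passed in no comparison, with arrays from 488 to 999 and group means from 9.05 ± 0.16 in SEZ_Prom to 9.94 ± 0.03 in SEZ_GFP (n = 2 each).

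Of the 3 electron transfer genes, Etfa and Etfb were higher in SEZ_GFPprom than in SEZ_CD24, and Etfdh did not pass. Etfa, the alpha subunit of electron transfer flavoprotein, stood at 531, 427, 399 and 563 in SEZ_GFPprom, 236 and 239 in SEZ_GFP, 326 and 238 in SEZ_Prom and 191 and 261 in SEZ_CD24, against 507, 641, 381 and 255 in DIEC_GFP. Its partner Etfb, the beta subunit, stood at 512, 506, 517 and 569 in SEZ_GFPprom, 498 and 339 in SEZ_GFP, 366 and 442 in SEZ_Prom and 279 and 118 in SEZ_CD24, against 425, 238, 519 and 444 in DIEC_GFP. For Etfa the SEZ_GFPprom arrays lay above those of all other SEZ sorts, and for Etfb the gap was to SEZ_CD24, SEZ_Prom and SEZ_GFP as well.

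Against SEZ_CD24, Etfa was 1.09 ± 0.32 higher in SEZ_GFPprom (adjusted p = 0.0442) and Etfb 1.53 ± 0.36 higher (adjusted p = 0.0154), although neither gene passed the F test (adjusted p = 0.0537 and 0.06). The Etfa call was lost in 11 of 14 fits without 1 array (up to 0.236, without SEZ_CD24 replicate 1), and the Etfb call without SEZ_CD24 replicate 2 (0.91, adjusted p = 0.21). Etfdh, which hands the electrons to ubiquinone, passed in no comparison, with group means from 7.90 ± 0.11 in SEZ_CD24 (n = 2) to 8.88 ± 0.57 in DIEC_GFP (n = 4) and a difference of -0.99 ± 0.39 between them (adjusted p = 0.115, or 0.0498 without DIEC_GFP replicate 4). Without that array Etfa passed against DIEC_GFP in SEZ_GFP (-1.07, adjusted p = 0.0214) and in SEZ_CD24 (-1.16, adjusted p = 0.0128). Etfb in SEZ_CD24 differed from DIEC_GFP by -1.11 ± 0.36 (adjusted p = 0.054), and this passed without DIEC_GFP replicate 2 (0.016) or SEZ_CD24 replicate 1 (0.0125). Etfb also passed in SEZ_Prom against SEZ_CD24 without SEZ_CD24 replicate 1 (1.77, adjusted p = 0.0349).

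Among the peroxisomal enzymes Hsd17b4 passed in 1 comparison. This multifunctional enzyme, which hydrates and dehydrogenates very long and branched chains, stood at 604, 805, 945 and 552 in SEZ_GFPprom, 581 and 450 in SEZ_GFP, 641 and 879 in SEZ_Prom and 335 and 391 in SEZ_CD24, against 852, 1826, 1098 and 704 in DIEC_GFP. Both SEZ_CD24 arrays were below all others, and it fell by 1.53 ± 0.35 there against DIEC_GFP (adjusted p = 0.0106). With 1 SEZ_CD24 array left out, replicate 1 or 2, the adjusted p was 0.0794 or 0.0539. In SEZ_GFP it differed from DIEC_GFP by -1.03 ± 0.35 (adjusted p = 0.0791, or 0.0338 without DIEC_GFP replicate 4), and SEZ_GFPprom was 0.97 ± 0.35 above SEZ_CD24 (adjusted p = 0.0912, or 0.0375 without DIEC_GFP replicate 2 and 0.00873 for the mean of its probe sets).

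The other peroxisomal members passed in no comparison. Acox3, an acyl-CoA oxidase, ranged from 39 to 72 and Acaa1a, the peroxisomal thiolase, from 151 to 365. Ehhadh, the bifunctional enzyme, read 4 to 58, at or under background on several arrays, and its within-group SD reached 1.84 in SEZ_GFPprom (log2, n = 4).

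Ppargc1a, which encodes the coactivator PGC-1alpha, had the largest differences of all members. It stood at 618, 401, 914 and 585 in SEZ_GFPprom, 256 and 351 in SEZ_GFP, 158 and 263 in SEZ_Prom and 75 and 36 in SEZ_CD24, against 606, 558, 1159 and 486 in DIEC_GFP. SEZ_GFPprom overlapped DIEC_GFP (-0.13 ± 0.35, adjusted p = 0.833), the other sorts lay below both, and SEZ_CD24 was lowest. It fell by 3.67 ± 0.43 in SEZ_CD24 against DIEC_GFP (12.7-fold lower, adjusted p = 0.000208) and was 3.54 ± 0.43 higher in SEZ_GFPprom than in SEZ_CD24 (11.6-fold, adjusted p = 0.000312). Both held under all 24 alternatives. The 4 other probe sets of the gene gave 0.85 to 3.98 for the second difference.

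SEZ_GFPprom exceeded SEZ_Prom in Ppargc1a by 1.57 ± 0.43 (adjusted p = 0.0482), and SEZ_Prom exceeded SEZ_CD24 by 1.97 ± 0.49 (adjusted p = 0.0407). Each was lost in 9 of 14 fits without 1 array, with the highest adjusted p without SEZ_Prom replicate 1 (0.344) for the first and without SEZ_CD24 replicate 2 (0.257) for the second, and the 4 other probe sets of the gene gave 0.07 to 0.62 for the first and 0.48 to 3.89 for the second. SEZ_GFP differed from DIEC_GFP by -1.14 ± 0.43, which did not pass (adjusted p = 0.111) except for the mean of its probe sets (-1.42, adjusted p = 0.0246) and with array weights (-1.11, adjusted p = 0.0441).

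The window of Ppargc1a, chr5:51567676-51567975 (minus strand, GRCm38.p6), had no copy of AGGTCA, none of CCAAT and none of GGGCGG, and so has no capitals. Its GC content was 48.7%, against 74% in the window of Acsl3.
Ppargc1a: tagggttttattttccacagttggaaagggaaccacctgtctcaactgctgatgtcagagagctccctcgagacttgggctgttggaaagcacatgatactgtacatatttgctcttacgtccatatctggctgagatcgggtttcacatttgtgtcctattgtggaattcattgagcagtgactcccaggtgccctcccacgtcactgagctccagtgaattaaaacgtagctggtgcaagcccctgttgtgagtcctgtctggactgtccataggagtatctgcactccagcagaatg

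Ppara ranged from 33 to 342 and stood at 101, 75, 342 and 89 in DIEC_GFP, with a difference of -1.73 ± 0.56 in SEZ_CD24 that did not pass (adjusted p = 0.0569). It passed without DIEC_GFP replicate 2 (0.0429), without the dimmest genes (0.0397) and for the mean of its probe sets (-1.04, adjusted p = 0.0382). Ppard ranged from 17 to 32 on all arrays, near the median probe set of 27, and passed in no comparison.

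SEZ_GFPprom was higher than SEZ_CD24 for 11 of 31 members (35.5%), against 8.98% of all genes, and lower for 0, against 4.74%. At an unadjusted p under 0.05, 17 members were higher and 0 lower, against 17.4 and 10.9% of all genes. The median member difference was 0.90, where that of all genes was 0.10. Astrocyte markers were higher for 8 of 15 genes in this comparison and ependymal markers for 12 of 14, while neuroblast markers were lower for 9 of 12 and microglia markers for 6 of 11. The summed neuroblast markers ran from 13275 to 16848 in SEZ_GFPprom, against 29322 and 45969 in SEZ_CD24. The part of these cell types in the member differences was not tested. The count was 4 without SEZ_CD24 replicate 2 and 7 without SEZ_GFPprom replicate 4, and 6 in a fit of only these groups.

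SEZ_Prom was higher than SEZ_CD24 for 3 members, Echs1, Hadh and Ppargc1a (9.68%, against 3.43% of all genes), and lower for 0 (2.1% of all genes, and at an unadjusted p under 0.05 0 members, against 8.73% of all genes). At an unadjusted p under 0.05 there were 15 higher, against 12.5% of all genes. The median member difference was 0.73, where that of all genes was 0.07. In this comparison oligodendrocyte markers were higher for 8 of 9 genes and progenitor markers for 3 of 7, and neuroblast markers were lower for 10 of 12. The 3' to 5' ratio was 4.63 ± 0.07 in SEZ_Prom and 5.15 ± 0.29 in SEZ_CD24 (SD, n = 2 each), and with it as a covariate 0 members passed. The part of these cell types in the difference was not tested. This count was 0 without either SEZ_Prom array, 1 without SEZ_CD24 replicate 2 or SEZ_GFPprom replicate 4, and 6 without DIEC_GFP replicate 4, and it was 0 in a fit of only these groups.

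SEZ_GFPprom and SEZ_GFP differed in 0 members in either direction by limma, against 2.63% of all genes higher and 0.539% lower. At an unadjusted p under 0.05, 6 members were higher and 0 lower, against 9.47% of all genes higher and 5.49% lower. The 6 were Acadm, Acad11, Hadh, Etfa, Ppard and Ppargc1a, with differences of 0.49 to 1.11 and adjusted p of 0.145 to 0.287. The median member difference was 0.14, where that of all genes was 0.07. SEZ_GFPprom was higher than SEZ_Prom in 1 member, Ppargc1a (3.23%, against 4.4% of all genes), and lower in 0 (2.76% of all genes). At an unadjusted p under 0.05, 5 members were higher and 1, Hadhb, lower, against 11.9 and 10% of all genes. Its median difference was -0.06, where that of all genes was 0.04, and the count ran from 0 to 3 when single arrays were left out. In a fit of only these groups Ppargc1a did not pass and Hadhb was lower. Slc25a20, 1.21 ± 0.36 higher in SEZ_GFPprom than in SEZ_Prom (adjusted p = 0.0644), passed without DIEC_GFP replicate 4 (0.03). Ependymal markers were higher in SEZ_GFPprom for 12 of 14 genes against SEZ_GFP and for 12 of 14 against SEZ_Prom. Neuroblast markers were lower in SEZ_GFPprom for 3 of 12 genes against SEZ_GFP, and oligodendrocyte markers for 4 of 9 against SEZ_Prom. The part of these cell types in the differences between these sorts was not tested. A p that misses the threshold does not show that these sorts were alike; groups of 2 arrays limit the precision.

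**Figure D4:**
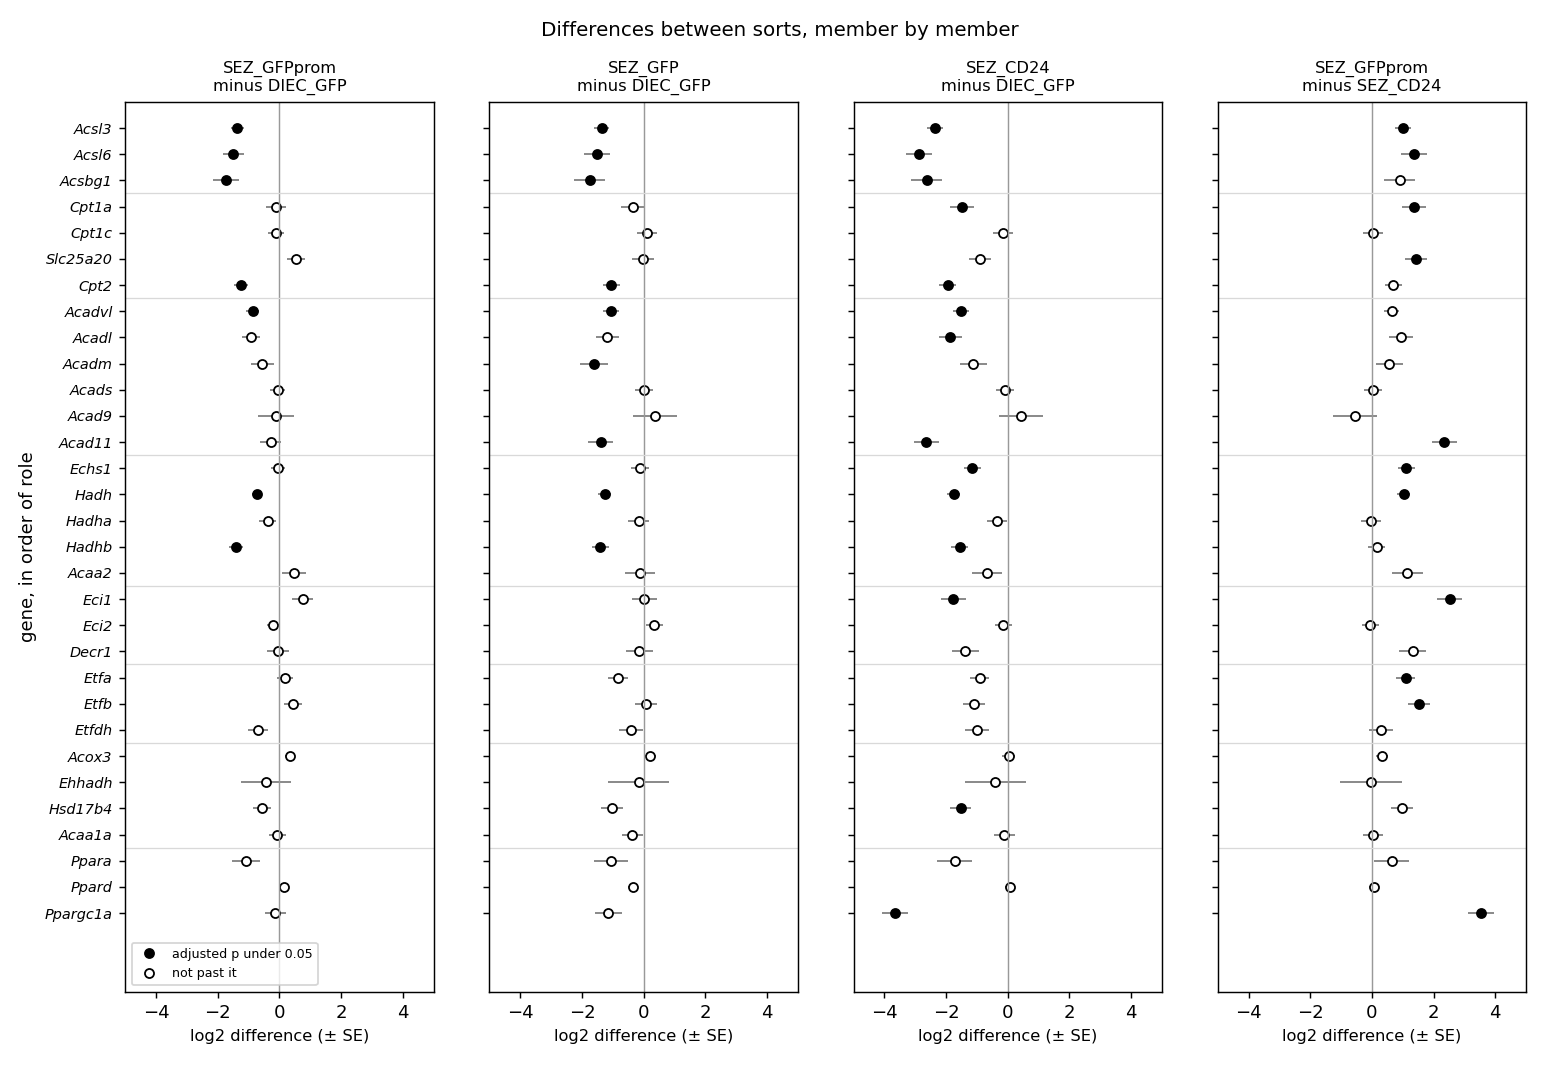
Log2 difference of each member in 4 comparisons, with its standard error (horizontal bars), filled where the adjusted p was under 0.05. Genes run in order of role. In the panels against DIEC_GFP all filled points lie left of 0, and for SEZ_GFPprom minus SEZ_CD24 all lie right of it, with Ppargc1a farthest out in both panels that involve SEZ_CD24.

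Genes around the pathway were then read from lists, with up to 4 members of each named. Their counts stand against the shares of all genes given above: 7.78, 7.05 and 9.74% lower and 10.1, 5.61 and 6.9% higher than in DIEC_GFP in SEZ_GFPprom, SEZ_GFP and SEZ_CD24. Fatty acid synthesis and desaturation was lower than in DIEC_GFP for 7 of 17 genes in SEZ_GFPprom, 6 in SEZ_GFP and 8 in SEZ_CD24, with 0 higher and medians of -0.82, -0.70 and -0.99 (log2). Me1, the malic enzyme that supplies NADPH, fell by 1.91 ± 0.27 in SEZ_GFPprom (adjusted p = 0.000945), and Elovl5, an elongase of polyunsaturated chains, by 1.36 ± 0.19 (adjusted p = 0.000914). The desaturase gene Scd2 fell by 0.96 ± 0.14 there (adjusted p = 0.000929). Thrsp, a regulator of lipogenesis, fell by 2.60 ± 0.35 in SEZ_CD24 (adjusted p = 0.000487) and did not pass in SEZ_GFPprom or SEZ_GFP (-0.28 in each).

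Other acyl-CoA synthetases included Acss2 and Acss1, which activate acetate, and these differed in SEZ_GFPprom from DIEC_GFP by -1.36 ± 0.21 and -1.42 ± 0.25 (adjusted p = 0.00148 and 0.00295). Over the list, 1 of 8 was higher and 2 lower in SEZ_GFPprom, 0 and 2 in SEZ_GFP, and 0 and 2 in SEZ_CD24. Ketone body metabolism was lower for 2 of 6 genes in SEZ_GFPprom, 4 in SEZ_GFP and 3 in SEZ_CD24, with 0 higher. The monocarboxylate transporter gene Slc16a1 fell by 2.26 ± 0.49 in SEZ_GFPprom (adjusted p = 0.00889), by 3.76 ± 0.60 in SEZ_GFP (adjusted p = 0.00195) and by 3.01 ± 0.60 in SEZ_CD24 (adjusted p = 0.00483). Bdh2, a hydroxybutyrate dehydrogenase gene, separated SEZ_GFPprom from the other SEZ sorts. SEZ_GFPprom was 2.50 ± 0.50 above SEZ_GFP (adjusted p = 0.0165), 2.65 ± 0.50 above SEZ_Prom (adjusted p = 0.00839) and 3.58 ± 0.50 above SEZ_CD24 (adjusted p = 0.000832).

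Other mitochondrial oxidation was lower than in DIEC_GFP for 1, 3 and 4 of 16 genes in SEZ_GFPprom, SEZ_GFP and SEZ_CD24, with 0 higher in each and medians of -0.31, -0.31 and -0.62. The count of 1 in SEZ_GFPprom is near the share of all genes. Its members with the smallest F-test p included Acot2, a mitochondrial thioesterase, and Ech1, a dienoyl-CoA isomerase, the second 1.70 ± 0.23 higher in SEZ_GFPprom than in SEZ_CD24 (adjusted p = 0.000694). Acot2 was also 1.05 ± 0.22 higher in SEZ_GFPprom than in SEZ_GFP (adjusted p = 0.0228). Other peroxisomal oxidation was lower for 1, 4 and 6 of 13 genes in the same 3 sorts, with 0 higher and medians of -0.12, -0.97 and -1.12. Abcd3, a peroxisomal transporter of acyl-CoA, fell in each of the 3, by 0.87 to 1.12 (adjusted p = 0.00155 to 0.00481), while Hacl1, a lyase of peroxisomal alpha-oxidation, was 2.69 ± 0.38 higher in SEZ_GFPprom than in SEZ_CD24 (adjusted p = 0.000866).

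Uptake and binding was lower for 3, 0 and 4 of 11 genes in SEZ_GFPprom, SEZ_GFP and SEZ_CD24 against DIEC_GFP, with 0 higher. The transporter gene Slc27a1 fell by 1.00 ± 0.26 in SEZ_GFPprom (adjusted p = 0.0216), and Dbi, which encodes an acyl-CoA binding protein, was 2.53 ± 0.47 higher in SEZ_GFPprom than in SEZ_CD24 (adjusted p = 0.00491). Lipid droplet and lipolysis had 0 of 12 higher and 3 lower in SEZ_GFP against DIEC_GFP, and 0 and 4 in SEZ_CD24. In SEZ_GFPprom against DIEC_GFP it moved both ways, with 2 higher and 2 lower. Cidea, a droplet protein, was 1.66 ± 0.31 higher there (adjusted p = 0.00433), and Abhd5, the activator of the lipase Pnpla2, fell by 2.75 ± 0.52 (adjusted p = 0.00426). Cidea in SEZ_GFPprom also exceeded all other SEZ sorts, by 2.90 ± 0.38 over SEZ_GFP (adjusted p = 0.00109), 2.59 ± 0.38 over SEZ_Prom (adjusted p = 0.00207) and 3.21 ± 0.38 over SEZ_CD24 (adjusted p = 0.000293).

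PPAR partners and targets had 2 of 16 higher and 1 lower in SEZ_GFPprom, 0 and 1 in SEZ_GFP, and 0 and 2 in SEZ_CD24 against DIEC_GFP, with medians of 0.16, -0.30 and 0.02. Angptl4, a lipase inhibitor and PPAR target, fell by 1.52 ± 0.27 in SEZ_GFPprom (adjusted p = 0.00348) and by 1.51 ± 0.34 in SEZ_GFP (adjusted p = 0.0118). It fell by 3.49 ± 0.34 in SEZ_CD24 (adjusted p = 7.05e-05). Ppargc1b, the paralogue of Ppargc1a, was 1.35 ± 0.32 higher in SEZ_GFPprom than in DIEC_GFP (adjusted p = 0.0141) and 2.32 ± 0.39 higher than in SEZ_GFP (adjusted p = 0.00593). Pdk4, the kinase that turns pyruvate dehydrogenase down, was 1.88 ± 0.43 higher in SEZ_GFPprom than in SEZ_CD24 (adjusted p = 0.0138).

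The promoter windows of 27 members were searched on both strands for motifs of these pathways, as a description of the sequence. AGGTCA, the core that nuclear receptors bind, was in 6 members (Acadm, Acadvl, Acsl6, Cpt1a, Cpt1c and Echs1), against 16.26% of 32817 windows. Its direct repeat with a spacer of 1 base, the arrangement that PPAR and its partner RXR bind, was in 0 members, against 0.04% of windows. CCAAT was in 14 members, against 37.389% of windows, and GGGCGG, the core of GC boxes, in 22, against 35.631%. These counts are of members, of which Acsl6 has several windows, and the shares are of windows. A TCAAGGTCA match holds an AGGTCA match. No match here says only that these letters are not in this window.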

How the data were processed

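RNA of sorted cells was purified with a column kit and a DNase step, amplified in 2 cycles, labelled with biotin and hybridised to 1 array a sample, per the labels' protocols. The deposited values are linear intensities rounded to whole numbers, made by the authors with RMA, version not given, per the submitters' processing notes. The plan assumed log2 values, so log2 was taken first, without a pseudocount; the median intensity of every array was 27, so no array was rescaled. Depth has no counterpart on arrays, and their number limits the precision.

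The platform annotation gave 34945 of 45101 probe sets a single gene symbol, 932 more than one, and 9160 no listed name; the single-symbol sets gave 18193 genes, each by its brightest probe set. limma 3.58.1 (R 4.3.3) fitted 1 mean per group over all 14 arrays, with Benjamini-Hochberg adjustment over all genes, a threshold of 0.05, 7 comparisons and an F test. All p-values in the text are from limma, and from this model unless the sentence names an alternative fit. Differences are the first group minus the second. The members and all lists were chosen with earlier results of these data known. All members are described by role, with values by array for those past the threshold in at least 1 comparison, and up to 4 genes of each related list, those with the smallest F-test p, are named; promoters are shown for the 4 members with the smallest F-test p, and other sequences were chosen after values were seen. The fit was tested on simulated data with 200 genes changed. Across the 7 comparisons it recovered 20 to 45% of changes of 1 log2 and 62 to 81% of changes of 2 log2. Of its calls there, 1.96 to 6.67% were false. Alternatives covered normalization, dim genes, a floor, probe set choice, the groups fitted, array weights, a replicate block, a covariate and leaving out each array.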

Additional observations from a re-analysis of the deposited data

Results flagged for a closer look

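In groups of 4 arrays, 4 of 62 tested sets of values (31 members in SEZ_GFPprom and in DIEC_GFP) had an array far from the other 3 relative to the range of the group, where chance flags about 1 in 20. Eci1, the enoyl-CoA isomerase gene, was highest in SEZ_GFPprom replicate 1, at 10.04 (log2 intensity), against 9.54 to 9.57 in the other arrays of that group. Slc25a20, the carnitine-acylcarnitine translocase gene, was lowest in DIEC_GFP replicate 4, at 8.02, against 8.92 to 9.03. Decr1, the dienoyl-CoA reductase gene, was highest in DIEC_GFP replicate 1, at 8.60, against 7.44 to 7.64. Ppard was lowest in SEZ_GFPprom replicate 2, at 4.52 against 4.64, which is an intensity of 23 against 25, in values deposited as whole numbers.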

How the results depend on the processing

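Each of the 45 differences past the threshold was refitted under 24 alternatives, which gave 1080 values: 902 passed in the same direction, 177 no longer passed and 1 changed sign. Hadh in SEZ_GFPprom against SEZ_CD24 changed to -0.12 without probe sets of shared sequence. Other, dimmer probe sets existed for 31 of the 45 differences and gave 57 values. Of these, 23 passed in the same direction, 54 had the same sign and 0 passed in the opposite direction. Of the 45 differences, 14 passed under every alternative. Those were 8 of 14 in SEZ_CD24 against DIEC_GFP, 3 of 7 in SEZ_GFPprom against DIEC_GFP (Acsl3, Cpt2 and Hadhb), 1 of 9 in SEZ_GFP against DIEC_GFP (Hadh) and 2 of 11 in SEZ_GFPprom against SEZ_CD24 (Eci1 and Ppargc1a). The 3' to 5' covariate ended 18 of the 45 calls, a fit of only the groups compared ended 17, and leaving out SEZ_CD24 replicate 2 or SEZ_GFP replicate 2 ended 15 or 13; the cause was not tested. Counts of members past the threshold, with single arrays left out, ran from 7 to 9 for SEZ_GFPprom against DIEC_GFP (7 in the full fit), 1 to 11 for SEZ_GFP against DIEC_GFP (9), 9 to 18 for SEZ_CD24 against DIEC_GFP (14), 0 to 0 for SEZ_GFPprom against SEZ_GFP (0), 4 to 11 for SEZ_GFPprom against SEZ_CD24 (11), 0 to 3 for SEZ_GFPprom against SEZ_Prom (1), 0 to 6 for SEZ_Prom against SEZ_CD24 (3) and 10 to 15 for the F test (15). The covariate moved the counts to 3 for SEZ_GFPprom and 1 for SEZ_GFP against DIEC_GFP, 0 for SEZ_GFPprom against SEZ_Prom and 0 for SEZ_Prom against SEZ_CD24. A fit of only the groups compared moved them to 5 for SEZ_GFP against DIEC_GFP, 6 for SEZ_GFPprom against SEZ_CD24 and 0 for SEZ_Prom against SEZ_CD24. A floor of 10 moved SEZ_GFP against DIEC_GFP to 5 and SEZ_GFPprom against SEZ_Prom to 0, and the mean of probe sets and the loss of probe sets of shared sequence each moved SEZ_GFPprom against SEZ_Prom to 0. Array weights gave 3 for SEZ_GFPprom against SEZ_Prom and 1 for SEZ_GFPprom against SEZ_GFP (Etfa, 1.03, adjusted p = 0.0264 by limma).

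Samples with the same replicate number did not deviate together (correlations of their deviations from -0.106 to 0.126), so the numbers were not taken as pairs. The check covered only the pairs of sorts in the 7 comparisons. Between groups of 2 arrays it holds a single value, since their deviations mirror each other. It cannot show whether samples shared an animal or a preparation. With the replicate block the counts were 7, 9 and 13 for SEZ_GFPprom, SEZ_GFP and SEZ_CD24 against DIEC_GFP, 0, 6 and 0 for SEZ_GFPprom against SEZ_GFP, SEZ_CD24 and SEZ_Prom, 2 for SEZ_Prom against SEZ_CD24 and 12 for the F test. With the SEZ_CD24 numbers crossed, an alternative chosen after seeing the data, SEZ_Prom against SEZ_CD24 gave 3. Dim probe sets, such as those of Hadha, Ehhadh and Ppard, limit what can be detected.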
